A study of Arabidopsis thaliana with 4 samples.

Results

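The class III peroxidase genes of *A. thaliana* were followed on 4 Agilent 2-colour arrays of plants under Al stress. The set was given as a list of 54 loci of the family. The rule for the list names no measured value, but the list was drawn up with earlier results of these data known. Of these, 53 had a probe on the array, and 50 passed the filter on dim probes, which asked for a signal well above background in either channel on 2 or more arrays. The same filter left 21227 genes in all. The 4 genes that did not pass were AT1G05250 (PRX2), which had no probe, and AT1G77100, AT2G18140 and AT5G58400, which were too dim. Where a gene had several probes, the brightest was used, and all values below are of that probe. Of the 200 ratios of the members (50 genes on 4 arrays), 23 had a single channel well above background and 12 had neither, in 15 genes. The size of such a ratio is not a measured fold, and where such a gene is described below the channel is given.

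Class III peroxidases are secreted haem enzymes that oxidise phenolic compounds with hydrogen peroxide. In the cell wall they couple monolignols into lignin, cross-link wall polymers and so stiffen the wall, and they can also produce reactive oxygen species, in growth as in defence. Root growth arrest, wall stiffening and an oxidative burst are all known features of Al stress, and many genes of the family are expressed mainly in roots.

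Each array held Al-treated plants (Cy5) and untreated plants (Cy3) of the same line, with 2 arrays of the wild-type Col-0 ecotype and 2 of the *AvSAMS1* TF line. The latter is a single homozygous line, TF6, in Col-0 that carries the *S*-adenosylmethionine synthetase gene *AvSAMS1* of the grass *Andropogon virginicus* under a constitutive promoter of the cauliflower mosaic virus, and *AvSAMS1* itself was not measured here. Plants about 3 weeks old were exposed to Al at pH 4.2 for 2 days, and how many plants made up a sample is not given in the sources used here. The labels give the Al concentration as 300 mM and the methods give it in μM, and the labels name the whole plant as tissue but shoots in the labelling step.

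The replicate numbers mark 2 experiments. In both lines, the untreated plants were taken at day 0 in replicate 1 and at day 2 in replicate 2, so that the control of replicate 1 was taken 2 days before its treated plants. The replicate 2 arrays of both lines were on the same slide, the replicate 1 arrays were each on a slide of their own, and the numbers also differed in the version of the scanner software. Experiment, sampling day, slide and software version therefore cannot be told apart. No array had its dyes exchanged, so a dye effect of a probe cannot be told apart from the Al response of a line.

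In the whole series, between 62.2% and 79.6% of probes were well above background in a channel, and *AvSAMS1* TF replicate 1 was the dimmest array. Its log2 ratios ran against those of the replicate 2 arrays over 25773 probes well above background throughout, with a correlation of -0.33 with Col-0 replicate 2 and -0.28 with *AvSAMS1* TF replicate 2. The replicate 2 arrays of the lines correlated at 0.83, the 2 Col-0 arrays at 0.48, Col-0 replicate 1 with *AvSAMS1* TF replicate 2 at 0.46, and the replicate 1 arrays at 0.08. The direction was kept as the methods state the dyes. With the filter above, no probe of any gene passed an adjusted p of 0.05 for the Al response in either line, and *AvSAMS1* TF replicate 1 is named below wherever a value turns on it.

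As a family, the peroxidase genes lay on different sides of no change on different arrays. Their median log2 ratio (Al-treated over untreated) was 1.39 on Col-0 replicate 1, -0.50 on Col-0 replicate 2, -1.11 on *AvSAMS1* TF replicate 1 and -0.62 on *AvSAMS1* TF replicate 2, where the median of all genes was between -0.02 and 0.05. The sign of each of the 4 medians was the same with the other background corrections and normalizations that were tried, but their size was not. After normexp and loess they were 0.81 and -0.47 in Col-0, against -0.54 and -0.54 in *AvSAMS1* TF. With median centring they were 0.95 and -0.13 in Col-0, against -0.70 and -0.28 in *AvSAMS1* TF. Median centring in place of loess moved the median of all genes to between 0.23 and 0.27, to which the medians under that setting are to be compared. Of the 50 genes, 39 had a positive ratio on Col-0 replicate 1, 17 on Col-0 replicate 2, 17 on *AvSAMS1* TF replicate 1 and 10 on *AvSAMS1* TF replicate 2. The SD between genes on an array was between 1.97 and 2.55, against 0.92 to 1.26 over all genes, so that the members were spread more widely than genes in general on each of the 4 arrays.

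The most frequent pattern was a positive ratio on Col-0 replicate 1 and a negative ratio on the other 3 arrays. It was found in 17 genes (34% of the 50), against 3.78% of all genes. A further 8 genes (16%, against 11.6% of all genes) were positive on the replicate 1 arrays of both lines and negative on the replicate 2 arrays. Only 3 genes were positive on all arrays and 5 negative on all (6% and 10%, against 11.2% and 10.6%).

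**Figure D1:**
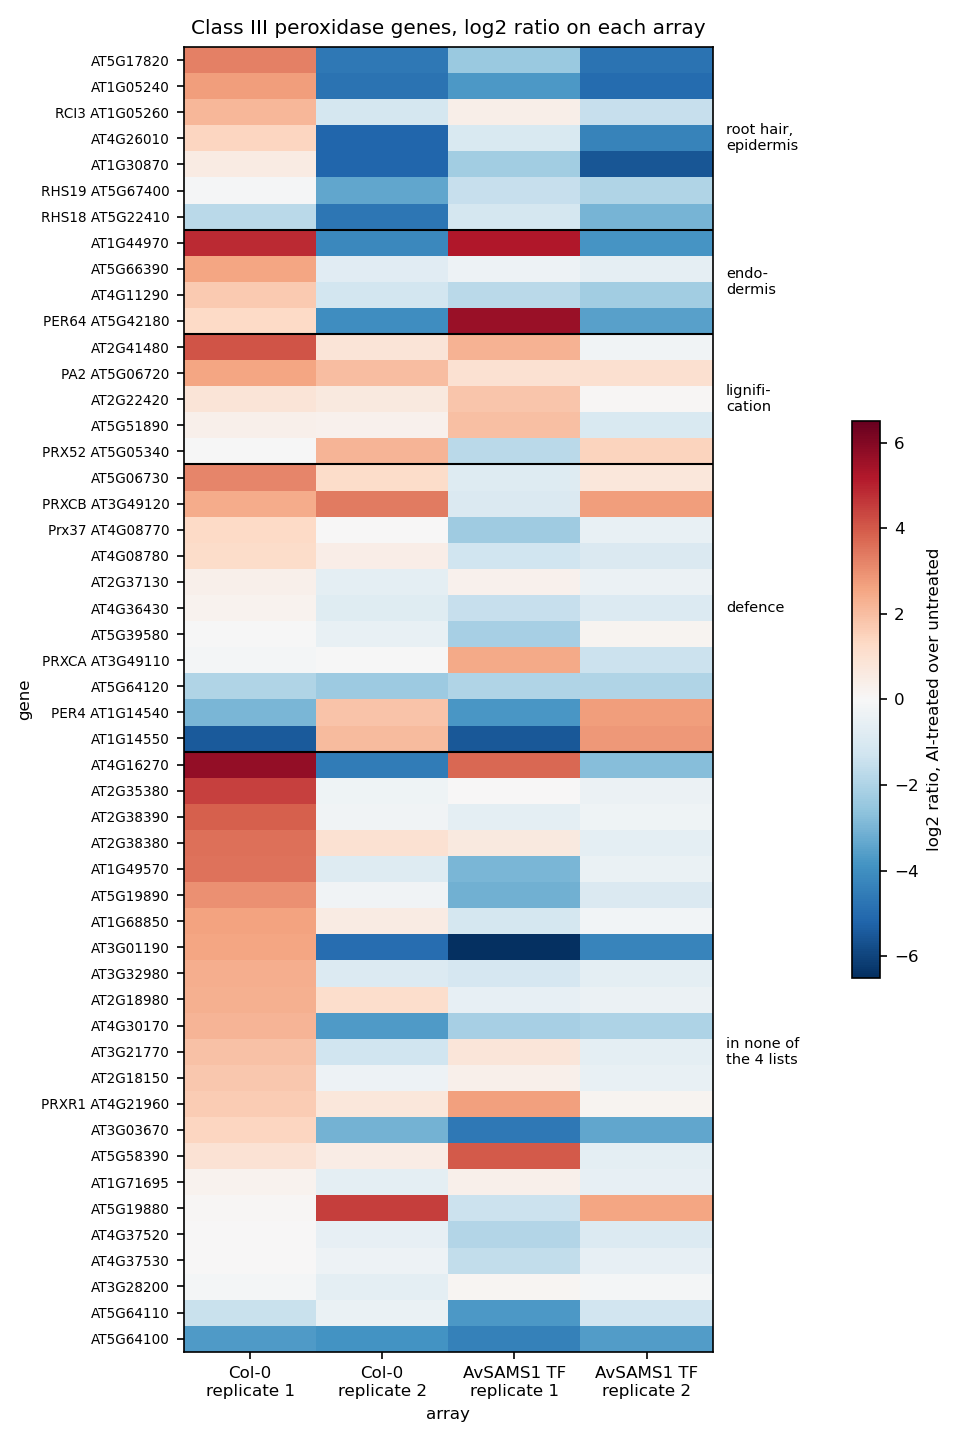
Log2 ratio of Al-treated over untreated plants for the 50 class III peroxidase genes past the filter (rows, in 4 lists of known roles and a remainder) on the 4 arrays (columns), red for higher and blue for lower in Al-treated plants. The column of Col-0 replicate 1 is mostly red (39 genes above 0), while the replicate 2 columns of both lines resemble each other and not the replicate 1 columns.

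Across the 50 genes, the replicate 2 arrays of the 2 lines were alike, with a correlation of 0.94. They had the same sign in 41 genes, against 80.4% of all genes, so the agreement in sign was close to that of genes in general. The 2 arrays of Col-0 correlated at -0.12 with the same sign in 22 genes, against 63.4% of all genes. The 2 arrays of *AvSAMS1* TF correlated at 0.02 with the same sign in 28 genes, against 37.4% of all genes. The replicate 1 arrays of the lines correlated at 0.40 with the same sign in 24 genes, against 52.5% of all genes. These are correlations across genes of 1 family, which are not independent of each other, and the replicate 2 arrays also share a slide.

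Markers of roots and leaves also differed between arrays, and they did not follow the peroxidase medians on each of them. Of 25 root markers, 24 passed the filter, and their median log2 ratio was 0.90 on Col-0 replicate 1, -1.57 on Col-0 replicate 2, 0.00 on *AvSAMS1* TF replicate 1 (-0.33 with median centring) and -0.78 on *AvSAMS1* TF replicate 2. In untreated plants of replicate 2 all 24 were well above background on both arrays, but in those of replicate 1 only 13 (Col-0) and 16 (*AvSAMS1* TF) were. Their summed signal in untreated plants was 38000 and 26400 in replicate 1 of Col-0 and *AvSAMS1* TF, and 127000 and 81700 in replicate 2. In Al-treated plants 16 and 22 root markers were above background in Col-0 (replicates 1 and 2), against 12 and 20 in *AvSAMS1* TF. The root hair expansins EXPA7 and EXPA18 were above background on no array in Al-treated plants, while SHV2, RHD6 and LRX1 were so on 2 arrays each.

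The 25 leaf photosynthesis markers were all above background in every sample. Their median log2 ratio was -1.30 on Col-0 replicate 1, -0.52 on Col-0 replicate 2, 0.96 on *AvSAMS1* TF replicate 1 and -0.01 on *AvSAMS1* TF replicate 2 (0.08 after normexp and loess). In untreated plants their summed signal was 5690000 and 1740000 in replicate 1 of Col-0 and *AvSAMS1* TF, and 3790000 and 3290000 in replicate 2. The root marker median had the sign of the peroxidase median on 3 arrays and was at 0.00 on *AvSAMS1* TF replicate 1, where that of the peroxidases was -1.11, and the leaf marker median shared it on Col-0 replicate 2 and opposed it on both replicate 1 arrays. The part of the root and leaf content of the samples in the peroxidase ratios was not tested, and in whole plants fewer cells of a type and less RNA per cell cannot be told apart.

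**Figure D2:**
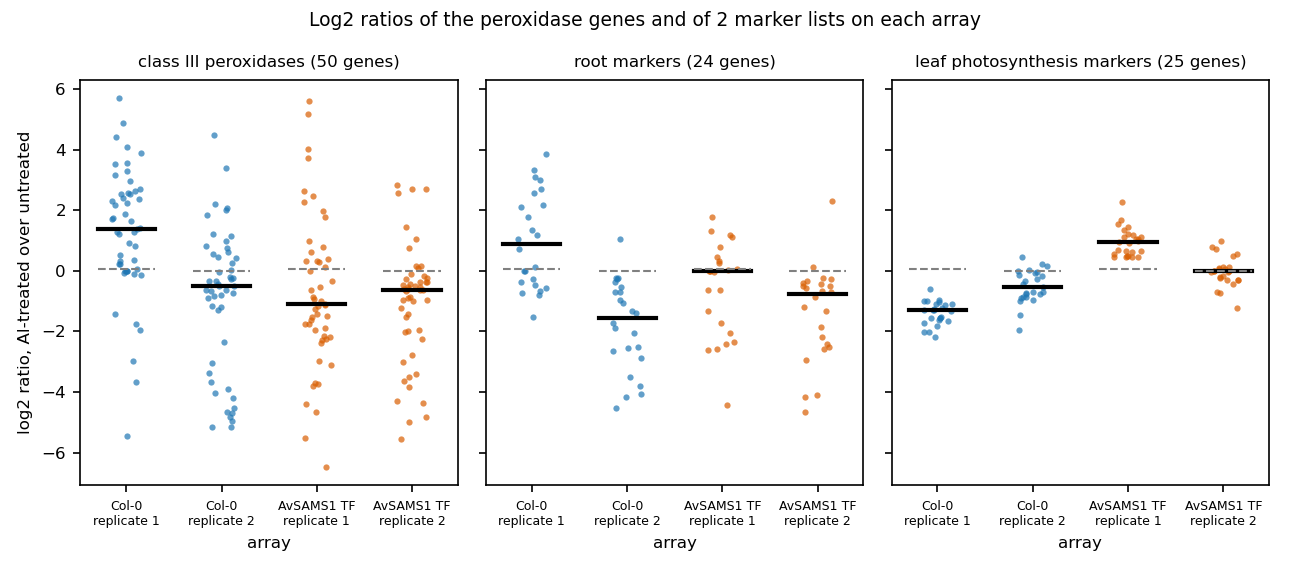
Log2 ratio of Al-treated over untreated plants (y axis) on each array (x axis) for the 50 peroxidase genes, 24 root markers and 25 leaf photosynthesis markers. Each point is a gene, the black bar is the median of the list and the dashed line that of all genes. The root markers had medians of 0.90 and -1.57 in Col-0, and the leaf markers lay wholly above 0 on *AvSAMS1* TF replicate 1.

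In the test of the Al response across both arrays of a line, no peroxidase gene passed an adjusted p of 0.05 (limma, Benjamini-Hochberg over 34724 probes). This held for each line and for the contrast between them, where 0% of all probes passed too. The lowest adjusted p of a member was 0.6555 for the Col-0 response, 0.9912 for that of *AvSAMS1* TF and 0.9988 for their difference. At an unadjusted p under 0.05, 8 members were counted in Col-0 (5 of them higher in Al-treated plants), against 7.53% of all probes. In *AvSAMS1* TF 9 members were counted (1 higher), against 3.48% of probes, and for the difference 3 (none with the higher ratio in *AvSAMS1* TF), against 0.962%. With the experiment as a block in the same fit, these unadjusted counts became 16, 19 and 7, against 11.8%, 9.47% and 2.58% of probes, and the adjusted counts stayed at 0. The methods' t-test, without the F-test before it, gave 1, 3 and 2 members at an unadjusted p under 0.05, against 6.69%, 3.11% and 1.48% of probes. After adjustment it gave 0 members in each comparison, against 0.00288% of probes in Col-0 and 0% in the other comparisons.

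By size alone, more members were low than high in Al-treated *AvSAMS1* TF. A log2 ratio below -1 on both arrays of that line, which is more than 2-fold lower, was found in 12 members (24% of 50), against 1.44% of all genes, and more than 2-fold higher only in PA2 (0.956% of all genes). In Col-0 the counts were 4 higher (3.69% of all genes) and 3 lower (2.45% of all genes). On all 4 arrays 1 member was more than 2-fold higher (0.433%) and 3 were more than 2-fold lower (0.415%). The 3 lower members, in Col-0 as on all arrays, included RHS18 (AT5G22410), which passed the filter only through untreated plants of replicate 2. When both channels of every array had to be well above background, 2 members were lower in Col-0 and 2 on all arrays. The count of 12 rests on dim values in part: it was 6 when both channels of every array had to be well above background, 7 after normexp and loess and 6 after normexp and median centring. Asking for both channels also left fewer members to count. No share of all genes is given for these settings, so the size of the excess over genes in general is known for the main setting only.

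Taken by experiment instead of by line, 6 members were more than 2-fold higher (4.37% of all genes) and 6 lower (2.51%) on the replicate 1 arrays of both lines. On the replicate 2 arrays of both lines, 6 were higher (5.46%) and 16 lower (4.13%). PER4 and AT1G14550 were on opposite sides, in the lower group of replicate 1 and in the higher group of replicate 2, and AT1G44970, AT4G16270 and PER64 were the reverse.

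**Figure D3:**
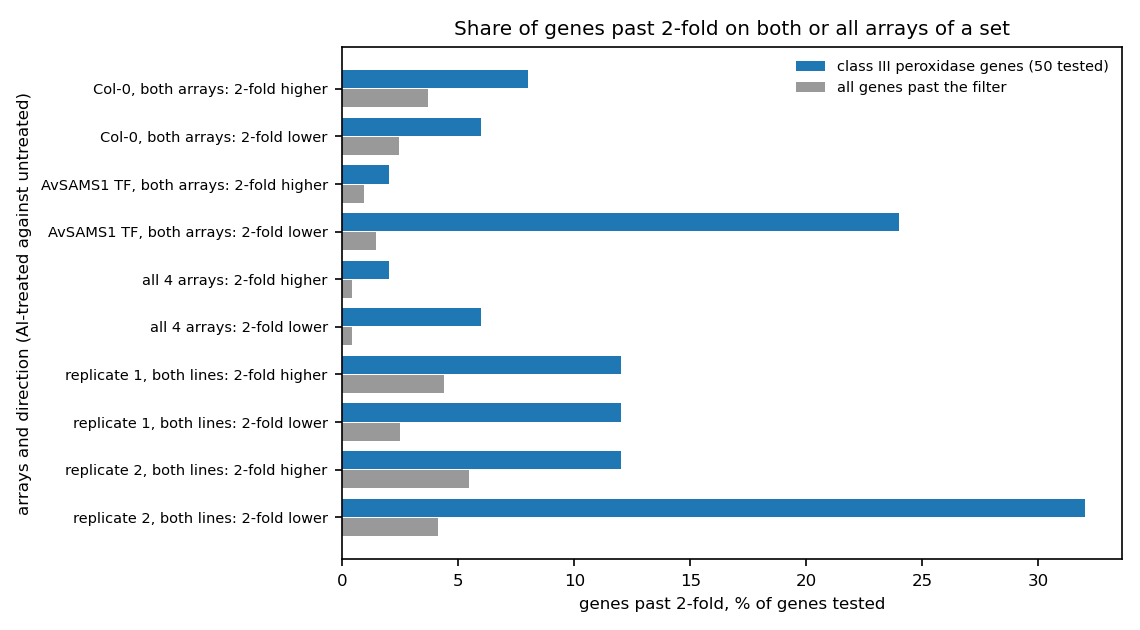
Share of genes more than 2-fold higher or lower in Al-treated plants (x axis, % of genes tested) for the 50 peroxidase genes (blue) and all 21227 genes (grey), on both arrays of a line, on all arrays, or on the arrays of both lines in an experiment. The widest gaps are for genes lower in *AvSAMS1* TF (24% against 1.44%) and lower in replicate 2 (32% against 4.13%).

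Among the members below 0 on all arrays were 3 neighbouring genes on chromosome 5, AT5G64100, AT5G64110 and AT5G64120. AT5G64120 (PRX71) is known to restrict growth and to raise reactive oxygen when the wall is damaged. The log2 ratio of AT5G64100 was -3.66 and -3.91 in Col-0, against -4.39 and -3.62 in *AvSAMS1* TF (replicates 1 and 2). That of AT5G64120 was -1.95 and -2.35 in Col-0, against -1.94 and -1.98 in *AvSAMS1* TF. Both genes were thus lower in Al-treated plants on all 4 arrays, by close to the same factor in each line, and were well above background throughout.

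AT5G64110, between them, was also below 0 on all arrays but over a wider range, at -1.44 and -0.45 in Col-0, against -3.72 and -1.24 in *AvSAMS1* TF. The limma estimate for AT5G64100 was -3.78 ± 0.32 (SE, n = 2) in Col-0 and -4.01 ± 0.32 (SE, n = 2) in *AvSAMS1* TF, with adjusted p of 0.6555 and 0.9912. For AT5G64120 it was -2.15 ± 0.27 and -1.96 ± 0.27 (SE, n = 2 each), with the same adjusted p as AT5G64100 in each line. The difference between the lines was -0.22 ± 0.45 for AT5G64100 and 0.19 ± 0.38 for AT5G64120. The log2 signal in untreated plants was 14.11 and 13.46 in Col-0, against 17.25 and 15.55 in *AvSAMS1* TF for AT5G64100, and 16.08, 16.05, 17.72 and 17.01 in the same order for AT5G64120, with both *AvSAMS1* TF samples above both Col-0 samples.

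PA2 (AT5G06720, peroxidase 53), a peroxidase associated with lignin formation, was the only member higher in Al-treated plants by more than 2-fold on all arrays. Its ratio of Al-treated to untreated signal was 5.81 and 4.03 in Col-0, against 2.00 and 2.08 in *AvSAMS1* TF, so that the lines did not overlap. The share of all genes whose ratios do not overlap between the lines was not counted, and with 2 arrays per line many may not. After normexp and loess it no longer passed 2-fold on both *AvSAMS1* TF arrays. The limma estimate was 2.27 ± 0.28 in Col-0 and 1.03 ± 0.28 in *AvSAMS1* TF on the log2 scale, and the difference of -1.24 ± 0.40 (SE, n = 2 per line) had an adjusted p of 0.9988.

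Its neighbour AT5G06730 had log2 ratios of 3.17 and 1.20 in Col-0, against -0.85 and 0.75 in *AvSAMS1* TF. The lines did not overlap here either, again without a count of all genes beside it, and the *AvSAMS1* TF arrays lay on both sides of 0. PRXCB (AT3G49120, peroxidase 34), which together with PRXCA (AT3G49110, peroxidase 33) produces reactive oxygen in the defence response, was at 2.39 and 3.38 in Col-0, against -0.92 and 2.71 in *AvSAMS1* TF. It was higher in Al-treated plants on 3 arrays, with *AvSAMS1* TF replicate 1 apart from them. PRXCA differed from its neighbour, at -0.15 and -0.04 in Col-0, against 2.46 and -1.42 in *AvSAMS1* TF.

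AT2G18980 was the remaining member more than 2-fold higher on both Col-0 arrays. Its log2 ratio was 2.31 and 1.15 in Col-0, against -0.53 and -0.36 in *AvSAMS1* TF.

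**Figure D4:**
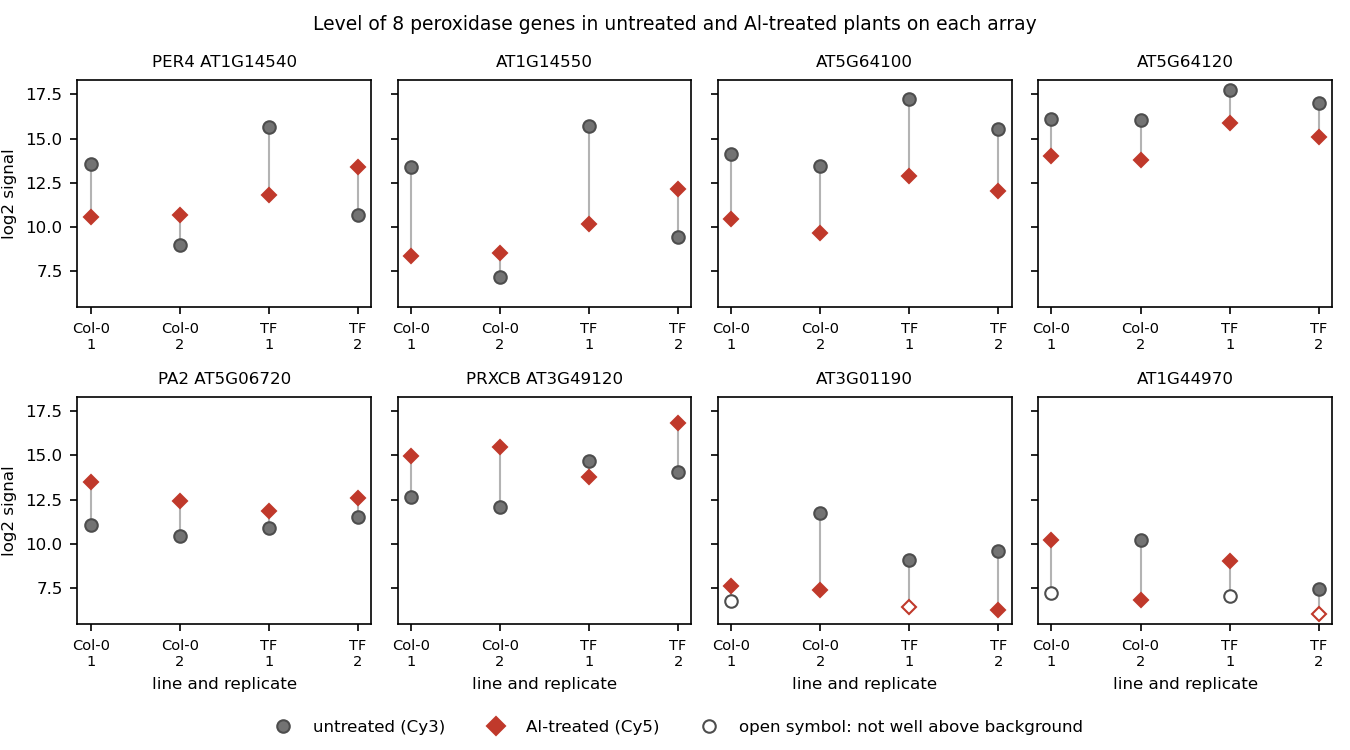
Log2 signal (y axis, normexp, loess and Aquantile) of 8 peroxidase genes in untreated (grey circles) and Al-treated plants (red diamonds) on each array (x axis), joined by a line within an array. Open symbols were not well above background. AT5G64100 and AT5G64120 were lower in Al-treated plants on every array, PA2 was higher on every array, and PER4 and AT1G14550 were lower on the replicate 1 arrays and higher on the replicate 2 arrays.

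Peroxidase genes of root hairs and the root epidermis were put in a list of 8, of which 7 passed the filter. It holds RHS18 (AT5G22410) and RHS19 (AT5G67400), known as root hair specific transcripts, and RCI3 (AT1G05260), a cold-inducible peroxidase that produces reactive oxygen in roots short of potassium. The median log2 ratio of the list was 1.41 on Col-0 replicate 1 (0.20 after normexp and loess, -0.07 with median centring), -4.68 on Col-0 replicate 2, -1.51 on *AvSAMS1* TF replicate 1 and -4.35 on *AvSAMS1* TF replicate 2. After normexp and loess the last 3 were -2.75, -0.39 and -2.00. On the replicate 2 arrays all 7 genes were negative in both lines, and on Col-0 replicate 1 5 of the 7 were positive. More than 2-fold lower on both arrays were 5 of 7 in *AvSAMS1* TF (1.44% of all genes) and 1 of 7 in Col-0 (2.45% of all genes). The gene counted in Col-0 was RHS18, for which only a rough bound can be given. In all 5 genes counted in *AvSAMS1* TF, the Al-treated sample of replicate 1 was not well above background. For AT1G30870, RHS18 and RHS19 the untreated sample of that array was not either, so these counts do not compare measured folds between the lines.

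AT1G05240 was at 2.70 and -4.81 in Col-0, against -3.71 and -5.00 in *AvSAMS1* TF. AT5G17820 was at 3.28 and -4.67 in Col-0, against -2.39 and -4.81 in *AvSAMS1* TF. RCI3 was at 2.16 and -1.15 in Col-0, against 0.38 and -1.52 in *AvSAMS1* TF. In these 3 genes the replicate 2 arrays were both negative, with both channels well above background. The ratios of replicate 1 have no order for AT1G05240 and AT5G17820, since untreated Col-0 and Al-treated *AvSAMS1* TF were not well above background there, and for RCI3 untreated *AvSAMS1* TF of replicate 1 was not. The mean ratio in *AvSAMS1* TF was -4.35 for AT1G05240 and -3.60 for AT5G17820, and -2.32 and -1.92 after normexp and loess.

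The untreated levels of AT1G05240 and AT5G17820 set the experiments apart. On the log2 signal scale, AT1G05240 was at 6.34 in untreated Col-0 of replicate 1, where it was not well above background, and at 11.75 in replicate 2, and in *AvSAMS1* TF it was at 7.50 and 9.67. AT5G17820 was at 6.26, also not well above background, and at 10.78 in untreated Col-0 and at 6.94 and 9.31 in *AvSAMS1* TF. In Al-treated plants both genes lay between 5.98 and 7.52 on all arrays, with *AvSAMS1* TF replicate 1 not well above background. For these 2 genes the replicate 2 controls were thus the high samples, while the treated samples of both experiments were low. AT1G30870, AT4G26010 and RHS19 had the same shape, with controls of replicate 1 not well above background in either line. Their replicate 2 controls were at 8.88, 9.23 and 9.08 in Col-0, against 8.09, 8.00 and 7.91 in *AvSAMS1* TF. No Al-treated sample of these genes was above 6.63. RHS18 and RCI3 did not share this shape. RHS18 lay between 6.39 and 6.87 in all untreated samples. RCI3 was at 8.08 and 10.18 in untreated and at 9.72 and 9.14 in Al-treated Col-0. In *AvSAMS1* TF it was at 7.25 (not well above background) and 8.38 in untreated plants, and at 7.34 and 7.19 in Al-treated plants. Its controls were thus also higher in replicate 2, but its Al-treated level in Col-0 was not low.

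Several members of the list had no measured level on a side of the ratio. RHS18 was above background in untreated plants of replicate 2 only and in Al-treated plants on no array. Its deposited log2 ratios were -1.75 and -4.68 in Col-0, against -1.15 and -3.01 in *AvSAMS1* TF. They give only a nominal bound, 1.44-fold higher in untreated plants in Col-0 and 1.17-fold in *AvSAMS1* TF. This is less than the 2-fold by which it was counted above. Such bounds set the mean over both arrays of the brighter group against the dimmest probes that were well above background. In each case 1 of these 2 arrays was itself not well above background, so the bounds are rough and not strict lower limits. In *AvSAMS1* TF, the nominal bound was 2.37-fold higher in untreated plants for AT1G30870 and 2.00-fold for AT4G26010. RHS19 was above background only on the replicate 2 arrays, in both channels.

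Of the endodermis and Casparian strip list, all 4 genes passed the filter. PER64 (AT5G42180) is the peroxidase that deposits lignin in the Casparian strip, and PRX72 (AT5G66390) takes part in lignification. The median log2 ratio was 2.13 and -2.62 in Col-0, against 2.43 and -2.88 in *AvSAMS1* TF, so that the sign went with the experiment in both lines. On *AvSAMS1* TF replicate 1 it was 0.93 after normexp and loess and 1.19 with median centring, and there 2 of the 4 genes were positive, both against controls not well above background.

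AT1G44970 was at 4.87 and -4.20 in Col-0, against 5.19 and -3.83 in *AvSAMS1* TF. PER64 was at 1.28 and -4.02 in Col-0, against 5.62 and -3.51 in *AvSAMS1* TF. AT4G16270, which is in none of the role lists, had the same shape, at 5.69 and -4.53 in Col-0, against 3.71 and -2.78 in *AvSAMS1* TF. In all 3 genes untreated plants of replicate 1 were not well above background in either line, so the positive ratios of replicate 1 stand against an unmeasured control, and Al-treated *AvSAMS1* TF of replicate 2 was not well above background either. PER64 was above background in neither channel on Col-0 replicate 1. AT4G11290 did not follow them, with log2 ratios of 1.71 and -1.21 in Col-0, against -1.75 and -2.25 in *AvSAMS1* TF. PRX72 was at 2.56 on Col-0 replicate 1 and between -0.72 and -0.34 on the other arrays.

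The stem and xylem lignification list of 5 genes had positive medians on all arrays, at 0.83 and 0.82 in Col-0, against 1.79 and 0.09 in *AvSAMS1* TF. PA2, AT2G41480 (PRX25) and PRX52 (AT5G05340), which is needed for syringyl lignin in stems, belong to it. AT2G41480 was at 4.09 and 0.82 in Col-0, against 2.27 (over a control not well above background) and -0.25 in *AvSAMS1* TF. PRX52 was at -0.02 and 2.19 in Col-0, against -1.76 and 1.46 in *AvSAMS1* TF. The former was higher on the replicate 1 arrays and the latter on the replicate 2 arrays, in both lines. AT2G22420 was positive on all arrays, at 0.83 and 0.62 in Col-0, against 1.79 and 0.09 in *AvSAMS1* TF.

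The defence and oxidative burst list of 11 genes had medians of 0.22 and 0.03 in Col-0, against -1.50 and -0.36 in *AvSAMS1* TF. Neighbours PER4 (AT1G14540) and AT1G14550 turned over between the experiments. PER4 was at -2.99 and 1.83 in Col-0, against -3.80 and 2.71 in *AvSAMS1* TF. AT1G14550 was at -5.46 and 2.08 in Col-0, against -5.52 and 2.82 in *AvSAMS1* TF. Both lines gave nearly the same pair of values, lower in Al-treated plants in replicate 1 and higher in replicate 2, with both channels well above background on all arrays.

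Prx37 (AT4G08770), which stunts growth when overexpressed, and its neighbour AT4G08780 lay above 0 in Col-0 and below 0 in *AvSAMS1* TF. Prx37 was at 1.28 and 0.03 in Col-0, against -2.29 and -0.47 in *AvSAMS1* TF. AT4G08780 was at 1.21 and 0.42 in Col-0, against -1.27 and -0.95 in *AvSAMS1* TF. The lines did not overlap for either gene, but the share of all genes without overlap was not counted. The adjusted p of the difference was 0.9988 for AT4G08780 (limma), at an estimate of -1.93 ± 0.47 (SE, n = 2 per line).

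The 26 remaining members, of which 23 passed the filter, are in none of the role lists. Among them, AT3G01190, AT3G03670 and AT5G64100 (above) had low mean ratios in *AvSAMS1* TF, at -5.38, -4.03 and -4.01, and at -2.98, -2.77 and -3.95 after normexp and loess. AT3G01190 was at 2.54 and -4.94 in Col-0, against -6.46 and -4.31 in *AvSAMS1* TF, and AT3G03670 was at 1.38 and -3.05 in Col-0, against -4.67 and -3.40 in *AvSAMS1* TF. AT3G03670, with both channels well above background throughout, was thus above 0 on Col-0 replicate 1 alone. For AT3G01190, neither untreated Col-0 nor Al-treated *AvSAMS1* TF of replicate 1 was well above background. AT4G30170 was at 2.23 and -3.68 in Col-0, against -2.18 and -2.03 in *AvSAMS1* TF for its brightest probe. Its other probe, above background on 2 arrays only, was at 0.20 and -2.78 in *AvSAMS1* TF. Its count as more than 2-fold lower in that line thus depends on the probe.

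PRXR1 (AT4G21960) had a log2 ratio of 1.63 and 0.74 in Col-0, against 2.65 and 0.16 in *AvSAMS1* TF for its brightest probe. Its other 5 probes were positive on both replicate 1 arrays but negative on *AvSAMS1* TF replicate 2 (between -1.12 and -0.16), and on Col-0 replicate 2 they lay between -0.35 and 0.21. AT5G19890, the neighbour of AT5G19880, was at 2.98 and -0.22 in Col-0, against -3.11 and -0.96 in *AvSAMS1* TF. AT5G19880 was above background in neither channel of the replicate 1 arrays and not in untreated Col-0 of replicate 2 either, where its deposited log2 ratio was 4.47. That gives only a nominal bound in Col-0, 1.61-fold higher in Al-treated plants, of the same rough kind as those above. On *AvSAMS1* TF replicate 2, where both channels were above background, it was at 2.58.

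The contrast between the experiments was fitted with the line as a term, so its SE and p-values measure how alike the shift was in the 2 lines. For the Al ratios, no member and 0% of all probes passed an adjusted p of 0.05, and 19 of 50 members (6 higher in replicate 2) had an unadjusted p under 0.05, against 13.7% of probes. The lowest adjusted p was 0.257. AT1G14550 had an estimate of 7.94 ± 0.45 and PER4 of 5.67 ± 0.59 (SE, n = 2 pairs) on the log2 scale. That of AT1G44970, at -9.04, rests on replicate 1 controls not well above background, and was -4.90 after normexp and loess.

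The same contrast between untreated plants, which were sampled at day 0 in replicate 1 and day 2 in replicate 2, was fitted on the log2 signal of Cy3. Of 49 members past the filter for that channel, 8 passed an adjusted p of 0.05 (limma), against 3.93% of 33496 probes. The calls depended on the processing: none of the 8 passed with quantile normalized processed signals (0 members in all) or without the filter (0 members), and with a strict filter 9 members passed. The share of all probes that passed under these settings is not given. The estimates of the 8 genes kept their direction, with adjusted p between 0.0677 and 0.08136 for the quantile normalized signals and between 0.09069 and 0.0927 without the filter, and that of AT1G14550 was -6.82 and -6.24. At an unadjusted p under 0.05, 29 members were counted, against 25.3% of probes. These are the samples in which 13 and 16 root markers (replicate 1) and all 24 (replicate 2) were above background, and the part of this in the contrast was not tested.

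Higher in untreated plants of replicate 2 were 3 members (1.37% of probes in this direction). AT2G41480 rose by 2.53 ± 0.25 (SE), from 8.82 to 11.12 in Col-0 and from 7.17 to 9.92 in *AvSAMS1* TF. Its value of 7.17 was not well above background, and the gene did not enter the fit with the strict filter. AT2G38380 rose by 2.43 ± 0.23 and AT3G21770 by 1.76 ± 0.24. For each of the 3 genes both replicate 2 samples lay above both replicate 1 samples.

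Lower in untreated plants of replicate 2 were 5 members (2.55% of probes in this direction), 3 of them from the defence list (PER4, AT1G14550 and AT5G39580). AT1G14550 fell by 6.24 ± 0.22 (SE) on the log2 scale, from 13.42 to 7.17 in Col-0 and from 15.68 to 9.45 in *AvSAMS1* TF, with an adjusted p of 0.02828 (limma). PER4 fell by 4.79 ± 0.24, from 13.58 to 8.99 in Col-0 and from 15.66 to 10.67 in *AvSAMS1* TF. Of the others, AT5G39580 fell by 2.23 ± 0.26, PRX52 by 1.83 ± 0.25 and AT4G37530 by 1.70 ± 0.24. In Al-treated plants the log2 signal of AT1G14550 was 8.36 and 8.52 in Col-0, against 10.18 and 12.18 in *AvSAMS1* TF. Between the experiments its Al-treated level was thus close in Col-0, while in *AvSAMS1* TF it rose, by less than the untreated level fell. The cause of the turn of its ratio was not tested.

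Between untreated *AvSAMS1* TF and untreated Col-0, no member passed an adjusted p of 0.05, and 0.218% of probes did. An unadjusted p under 0.05 was found for 10 of 49 members (9 higher in *AvSAMS1* TF), against 7.29% of probes. With the experiment as a block, 17 members had an unadjusted p under 0.05 (18.5% of probes) and 3 passed the adjusted threshold (1.37% of probes). These were AT4G37520 at 3.36 ± 0.24, AT1G14550 at 2.27 ± 0.22 and PRXCB at 2.02 ± 0.22 (log2, SE, n = 2 pairs), with adjusted p of 0.01661, 0.0304 and 0.03936 (limma).

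The untreated log2 signal of AT4G37520 was 12.57 and 11.26 in Col-0, against 16.13 and 14.43 in *AvSAMS1* TF. That of AT3G28200 was 9.63 and 9.80 in Col-0, against 13.01 and 11.75 in *AvSAMS1* TF. That of Prx37 was 10.74 and 11.17 in Col-0, against 13.04 and 12.76 in *AvSAMS1* TF. For these 3 genes, as for AT5G64100 and AT5G64120 above, both *AvSAMS1* TF samples lay above both Col-0 samples. This is not a full count of such members, and the share of all genes that separate the lines this way was not counted. AT4G37520, AT3G28200 and AT5G64100 were named because they were among the highest in this contrast with the same direction in both pairs. AT4G08780 was the only member with an unadjusted p under 0.05 that was lower in *AvSAMS1* TF, at 10.23 and 10.60 in Col-0 against 8.36 and 9.42, although it neighbours Prx37.

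For AT3G28200 the Al ratio stayed close to 0 on all arrays (between -0.63 and 0.14), while its untreated level differed by 2.66 ± 0.50 (SE, n = 2 per line, adjusted p = 0.3026, limma) between the lines.

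Neighbouring members of the family did not always share their ratios. PER4 and AT1G14550, AT4G37520 and AT4G37530, and AT4G08770 and AT4G08780 had ratios of the same sign or at 0.00 on every array. AT4G37520 was at 0.00 and -0.51 in Col-0, against -1.89 and -0.88 in *AvSAMS1* TF, and AT4G37530 at 0.00, -0.33, -1.61 and -0.52 in the same order. PRXCA and PRXCB, and AT5G19880 and AT5G19890, had opposite signs on 2 or more arrays. AT2G38380 was at 3.57 and 0.97 in Col-0, against 0.62 and -0.62 in *AvSAMS1* TF, while its neighbour AT2G38390 was at 3.89 and -0.23 in Col-0, against -0.62 and -0.26 in *AvSAMS1* TF. Neighbours of this kind can be close in sequence, and cross-hybridisation between their probes was not tested.

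Where a gene had more than 1 probe past the filter (14 members), the probes were close for AT2G37130, AT4G37520, AT3G28200, AT1G71695 and AT2G38390, which differed by at most 0.59 on any array. They were farthest apart for AT5G58390, by 4.13 on an array, and AT1G44970, by 3.25. AT5G58390 is therefore given without an order, at 0.93 and 0.47 in Col-0, against 4.01 and -0.61 in *AvSAMS1* TF for its brightest probe.

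Other genes of the same pathway were read from the same fit. Of 19 further class III peroxidase genes, 10 passed the filter, with medians of 0.66 and -1.30 in Col-0, against 0.21 (-0.06 after normexp and loess) and -0.61 in *AvSAMS1* TF. None passed an adjusted p of 0.05. Casparian strip genes (7 of 8 past the filter) had medians of -0.26 and -2.52 in Col-0, against -0.58 and -0.54 in *AvSAMS1* TF, and all 7 were negative on both replicate 2 arrays.

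The enzymes that supply the peroxidases with monolignols had medians of the deposited ratios closer to 0 than the peroxidases on each array. After normexp and loess this did not hold on *AvSAMS1* TF replicate 1 (-0.72 against -0.54). With median centring it did not hold on replicate 2 of Col-0 (0.31 against -0.13) and of *AvSAMS1* TF (0.39 against -0.28), where the median of all genes was 0.23. All 18 monolignol synthesis genes passed the filter, their medians lay between -0.74 and 0.03, 0 passed the test in either line, and none was past 2-fold on both arrays of a line. Laccases, which also polymerise monolignols (16 of 17 past the filter), had medians between -0.44 and 0.29, with 0 past the test. LAC11 was at 2.72 and 0.09 in Col-0, against 3.47 and -0.12 in *AvSAMS1* TF. Of the 10 intracellular ascorbate peroxidases and catalases, which remove hydrogen peroxide, 0 passed the test and the medians lay between -0.32 and 0.04. CAT3 was positive on all arrays, at 1.54 and 1.51 in Col-0, against 1.06 and 0.88 in *AvSAMS1* TF, and CAT2 was negative, at -1.32 and -1.31 in Col-0, against -0.28 and -1.23 in *AvSAMS1* TF.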

How the data were processed

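The members and all lists were chosen with earlier results of these data known. For each spot, a log10 ratio (Cy5 over Cy3) was deposited, computed by the authors in Agilent Feature Extraction (11.0.1.1 for replicate 1 and 10.7.1.1 for replicate 2 in the file headers, 10.7.3.1 in the submitters' processing notes) with background and dye corrections made array by array. It is 0 where both channels are at the floor of the software. The deposited intensity values are processed signals and the median signals of spot and local background, without correction by the authors for the latter. The deposited series table of log2 ratios was made by the authors with GeneSpring and was used as an alternative. Per the file headers, the annotation of the probes differs between the replicates, so loci were named through the TAIR10.1 gene table, which was used for names and neighbours only.

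Ratios were put on the log2 scale without control spots or outlier spots (10 to 23 per array) and averaged by probe (43603 probes, 34485 of them paired to 25482 genes). The filter kept probes well above background in either channel on 2 or more arrays. The tests were made with limma 3.58.1 in R 4.3.3 (lmFit and eBayes, 1 coefficient per line, Benjamini-Hochberg adjustment at 0.05 over all probes). The experiment contrast had the line and the replicate number as terms. Levels of single channels were set on a log2 scale by normexp on median signals (offset 50), loess and Aquantile. The bounds were computed from the same values, with means over both arrays of a line, also where 1 of them was not well above background. The number of arrays limits the precision. In the fit by line, p-values measure the spread between 2 experiments per line. In the experiment contrast and with the experiment as a block, SE and p-values measure how alike the shift between experiments was in the lines. Each line was seen once in an experiment, so these values do not measure a spread between repeats of an experiment. The replicate numbers pair the arrays because the labels name them as experiments, and deviations of same-numbered arrays from the mean of their line correlated at 0.47 over 34724 probes and 0.65 over the 50 members.

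Named are members with an adjusted p under 0.05 in any contrast, those past 2-fold in the same direction on both arrays of a line, the 4 highest and 4 lowest with the same direction on both arrays in each contrast, and neighbours of these. Other members are named with their values as examples of their list. Alternatives were normexp with loess or median centring, the series table, other filters on dim probes, the median over probes, the experiment as a block, an intensity trend, each line alone, a plain t-test and each array left out.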

Additional observations from a re-analysis of the deposited data

Results flagged for a closer look

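For 4 peroxidase genes the ratio (Al-treated over untreated) was above 0 on both Col-0 arrays and below 0 on both *AvSAMS1* TF arrays. In terms of the log2 ratio, *AvSAMS1* TF minus Col-0 was -2.25 for AT1G68850, -2.18 for AT2G18980, -2.03 for AT4G08770 (Prx37) and -1.93 for AT4G08780. These genes were picked by this pattern, so the difference was not tested apart from the fit over all probes, in which their adjusted p was 0.9988. The same pattern was found in 8% of the members and 1.85% of all genes. Values for AT1G68850 were 2.64 and 0.54 in Col-0, against -1.14 and -0.17 in *AvSAMS1* TF.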

How the results depend on the processing

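The counts of 0 members past the adjusted threshold for the Al response in each line, the difference and the experiment contrast of the ratios were the same under each alternative that was run. Medians of the family kept their sign, and that of *AvSAMS1* TF replicate 1 moved from -1.11 to -0.54 after normexp and loess and to -0.70 after normexp and median centring.

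After normexp and loess, members more than 2-fold higher numbered 0 in *AvSAMS1* TF and 0 on all arrays, and 7 were lower in *AvSAMS1* TF. With median centring 7 were higher in Col-0 and 6 lower in *AvSAMS1* TF, and with the strict filter 6 were lower in *AvSAMS1* TF. Leaving out each array in turn, the counts ranged from 4 to 29 (Col-0, higher), 3 to 17 (Col-0, lower), 1 to 10 (*AvSAMS1* TF, higher), 12 to 26 (*AvSAMS1* TF, lower), 1 to 2 (all arrays, higher) and 3 to 11 (all arrays, lower). The counts of 29 and 17 are those of Col-0 replicates 1 and 2 alone, and those of 10 and 26 are of *AvSAMS1* TF replicate 1 alone. No share of all genes is given beside the 2-fold counts of these alternatives, so they show no excess over genes in general. In untreated plants, the 8 members that differed between the experiments became 0 with quantile normalized processed signals and 0 without the filter. The cause was not tested.

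With the experiment as a block (pairing by replicate number), 3 members passed between the untreated lines instead of 0, and no other adjusted call changed. Leaving out each array in turn, 8 named values changed sign. For the difference between the lines they ranged from -4.19 to 4.88 (AT1G44970), -0.01 to 0.39 (AT5G64120), -0.33 to 0.53 (AT1G71695), -7.05 to 0.46 (AT1G05240) and -6.88 to 1.06 (AT5G17820). Between the untreated lines they ranged from -0.86 to 5.39 (AT1G14550), -1.48 to 0.32 (AT2G18980) and -1.48 to 0.47 (AT3G21770). The experiment contrasts were not run without an array, which leaves no residual degrees of freedom. Signal over background limits the root genes, since 38 of 50 members were above background in untreated plants on each replicate 1 array.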
